A study of Mus musculus with 3 samples.

Results

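The regions described here are those marked by H3K27ac or H3K4me1 around the Tal1, Lyl1 and Lmo2 genes in old mouse blood stem cells. They were taken from the peak lists as every region that overlapped 1 of 3 windows on the mouse build mm9. The windows ran on chromosome 4 from 114650000 to 114800000 (Tal1), on chromosome 8 from 87200000 to 87250000 (Lyl1) and on chromosome 2 from 103700000 to 103840000 (Lmo2). Of 248440 regions in all, 150 were members: 73 of 93413 H3K27ac regions and 77 of 155027 H3K4me1 regions.

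The cells were primary blood stem cells of C57BL/6 mice, obtained from bone marrow by the gate SP-KSL-CD150+. SP (side population) cells expel a DNA dye, KSL is the usual name for lineage-negative cells positive for Kit and Sca-1, and CD150 is a surface protein used to enrich for stem cells. All libraries came from mice aged 24 months with no genetic change or treatment named in the labels. There was 1 library for H3K27ac (antibody Abcam ab4729), 1 for H3K4me1 (antibody Abcam ab8895) and 1 of input DNA, which was not analysed here. By the labels all are technical replicates from the one biological replicate 1, but they are libraries of different kinds and none repeats another. Hence no value below has a replicate check, no p-value is given, and no younger group was set against these cells. How many mice were pooled is not given in the sources used here.

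Tal1 (also called Scl) and Lyl1 are closely related basic helix-loop-helix transcription factors that bind short E-box sequences together with E proteins. Lmo2 is a LIM-only protein that does not bind DNA itself and bridges these factors to GATA proteins in a shared complex. In mice Tal1 and Lmo2 are required for blood formation, Lyl1 overlaps with Tal1 in function in adult stem cells, and all of them are known as human T-cell leukemia genes. H3K27ac marks active promoters and enhancers, and H3K4me1 marks enhancers and the flanks of active promoters. In the RefSeq gene order Tal1 lies between Stil and Pdzk1ip1, Lyl1 between Trmt1 and Nfix, and Lmo2 between Caprin1 and 4931422A03Rik. That order is from GRCm38. An annotation of mm9 was not used, so no region below is assigned to a promoter, an exon or a gene, and some may belong to these neighbours.

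The RefSeq promoter table (GRCm38.p6) held 3 sequences for 2 of the genes. They are printed to show the letters at the gene starts for which the windows are named, each with 250 bases before and 50 after a start site, plus strand. Capitals mark matches on either strand to GATAA (bound by GATA factors), CANNTG (the E-box) and CGGAA (bound by ETS factors).
Tal1 upstream start site, chr4:115056176-115056475: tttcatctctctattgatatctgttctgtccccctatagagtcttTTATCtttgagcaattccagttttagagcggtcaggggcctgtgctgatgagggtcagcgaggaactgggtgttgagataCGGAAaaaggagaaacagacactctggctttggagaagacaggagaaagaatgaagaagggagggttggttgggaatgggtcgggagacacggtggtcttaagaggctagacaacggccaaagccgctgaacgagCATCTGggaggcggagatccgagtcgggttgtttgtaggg
Tal1 downstream start site, chr4:115057561-115057860: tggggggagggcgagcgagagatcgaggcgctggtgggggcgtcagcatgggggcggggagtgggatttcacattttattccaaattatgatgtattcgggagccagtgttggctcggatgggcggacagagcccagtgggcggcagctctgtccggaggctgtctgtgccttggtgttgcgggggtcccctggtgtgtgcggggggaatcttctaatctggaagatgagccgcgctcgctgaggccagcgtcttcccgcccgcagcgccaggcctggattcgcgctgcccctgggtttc
Lyl1 start site, chr8:84701207-84701506: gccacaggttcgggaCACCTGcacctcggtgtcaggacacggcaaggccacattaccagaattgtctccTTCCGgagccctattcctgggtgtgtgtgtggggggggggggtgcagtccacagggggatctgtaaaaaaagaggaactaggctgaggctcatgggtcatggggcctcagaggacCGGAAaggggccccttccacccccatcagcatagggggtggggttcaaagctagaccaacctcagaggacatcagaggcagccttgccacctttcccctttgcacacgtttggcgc

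The upstream Tal1 sequence held 1 match to each of the 3 motifs, and the downstream one, 1385 bp further on, held 0 of each. The Lyl1 sequence held 2 matches to CGGAA, 1 to CANNTG and 0 to GATAA. No match overlapped one of another motif. Over all 32851 promoter sequences of this length, 25.4% held GATAA, 72.3% CANNTG and 29.9% CGGAA. The downstream Tal1 sequence was the richest in G and C, at 64.3% with 22 CG pairs, against 50.7% and 11 at the upstream start and 60.0% and 7 at Lyl1. The median over all promoters was 52.7% and 7 CG pairs. These coordinates are those of GRCm38.p6 and cannot be set against the mm9 regions that follow.

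All the windows were densely covered by both marks, and the Lmo2 window stood out for H3K27ac. H3K27ac covered 60.5 kb or 43.2% of the Lmo2 window, 24.9% of the Lyl1 window and 14.2% of the Tal1 window, against 2.24% of the autosomes. H3K4me1 covered 59.7% of the Lmo2 window, 59.5% of the Lyl1 window and 43.2% of the Tal1 window, against 6.95% of the autosomes. The Tal1 window held 19 H3K27ac and 32 H3K4me1 regions, the Lyl1 window 15 and 17, and the Lmo2 window 39 and 28. In the Lmo2 window alone H3K27ac regions outnumbered H3K4me1 regions, an order that was gone at a −log10 q of at least 5, with 19 of each, and turned at one of at least 10, with 9 and 14. Per 100 kb there were 12.7, 30.0 and 27.9 H3K27ac regions in the Tal1, Lyl1 and Lmo2 windows, against 3.74 over the autosomes.

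Windows of the same width laid end to end over the autosomes give the scale. Of 17636 such windows of 140 kb, 2 had as much H3K27ac coverage as the Lmo2 window (0.0113%), and the median was 0.575%. Of 49400 windows of 50 kb, 380 had as much as the Lyl1 window (0.769%), and the median window held none. Of 16458 windows of 150 kb, 315 had as much as the Tal1 window (1.91%). For H3K4me1 coverage the shares of windows at or above were 0.181% for Lmo2, 0.686% for Lyl1 and 0.924% for Tal1. By number of regions the loci stood out less. For H3K27ac the windows with as many regions were 0.567% for Lmo2, 1.16% for Lyl1 and 7.50% for Tal1. For H3K4me1 they were 6.12%, 1.24% and 4.68% in that order. These shares describe 2 libraries and are not a test, since the study windows were drawn around known genes. Windows touching a locus were left out.

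**Figure D1:**
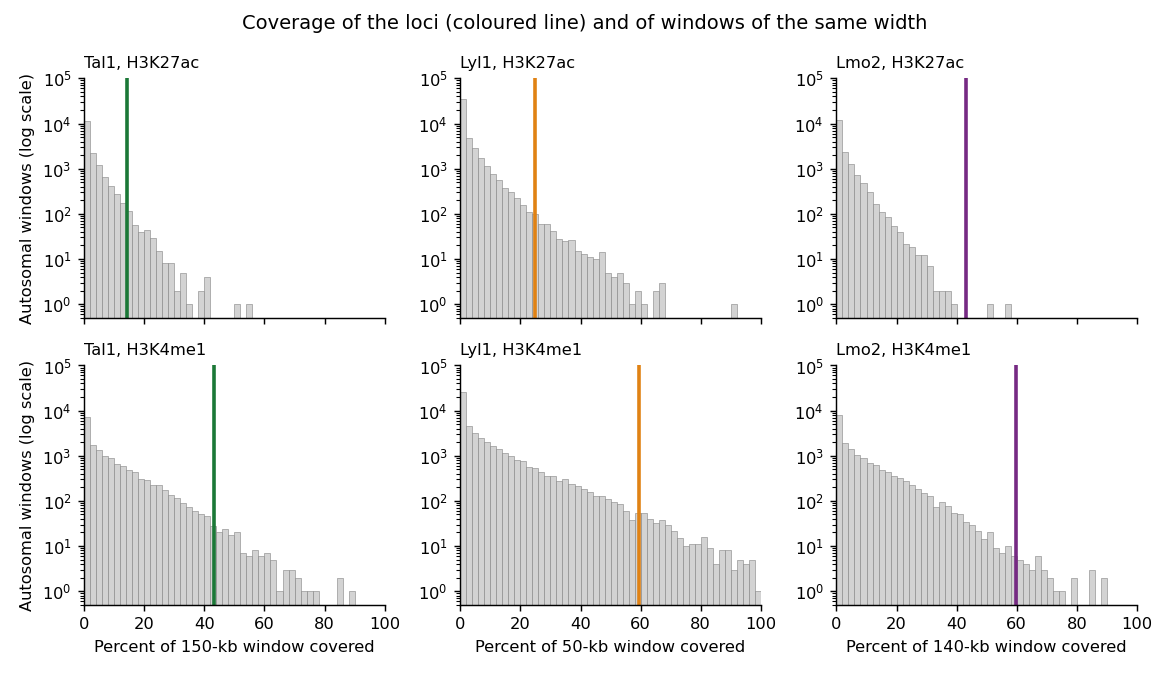
Each panel shows how many autosomal windows (y axis, log scale) had a given percentage of their length covered by H3K27ac (top) or H3K4me1 (bottom), in windows as wide as the Tal1, Lyl1 or Lmo2 window. The coloured line is the locus itself; the Lmo2 line for H3K27ac, at 43.2%, has 2 windows beyond it.

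The member regions had a higher median width and fold than the lists as a whole, with large spread. Fold here is the authors' value from their peak caller, and its values match the summit reads plus 1 over the local background plus 1. The 73 H3K27ac regions had a median of 4.43-fold (quartiles 3.84 and 7.98) and 610 bp, against 3.86-fold and 355 bp over all regions. The 77 H3K4me1 regions had a median of 4.98-fold (quartiles 3.58 and 6.95) and 1117 bp, against 4.12-fold and 687 bp. Of the 73 H3K27ac regions, 9 (12.3%) reached 10-fold, where 7.77% of all did. These were 4 of 19 at Tal1 (21.1%), 1 of 15 at Lyl1 (6.67%) and 4 of 39 at Lmo2 (10.3%). The Lyl1 share was near that of the list and rested on 1 region. Of the 73, 4 (5.48%) were 5 kb or wider, where 0.214% of all were, and all 4 lay at Lmo2. Of the 77 H3K4me1 regions, 14 (18.2%) reached 8-fold, where 6.25% did, and 10 (13.0%) were 5 kb or wider, where 2.04% were.

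A median summit rested on 16 H3K27ac reads (range 9 to 79) or 27 H3K4me1 reads (range 12 to 54). The genome-wide background at a summit was 2.38 H3K27ac and 3.75 H3K4me1 reads. The local background was more than 1.05 times that level at 25 of the 73 H3K27ac summits, where 26.2% of all summits were, and at 33 of the 77 H3K4me1 summits, where 36.8% were. It reached at most 1.79 and 2.62 times the genome-wide level. By locus, it was above 1.05 times at 11 of 32 H3K4me1 summits at Tal1 (34.4%), 11 of 17 at Lyl1 (64.7%) and 11 of 28 at Lmo2 (39.3%). Library read totals were not used here, and the part of depth in the difference between the marks was not tested.

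**Figure D2:**
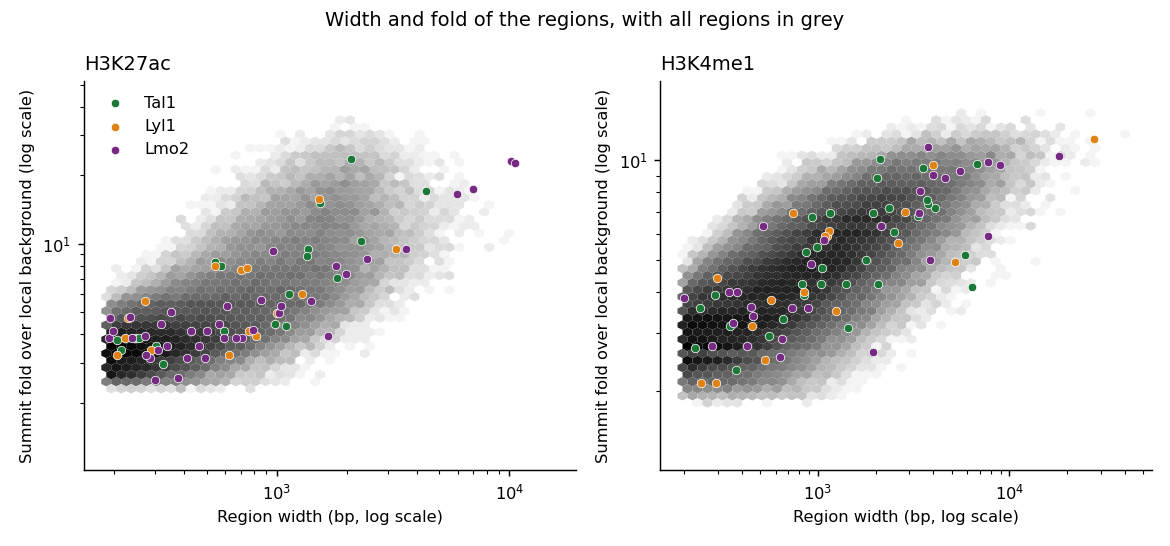
Each point is a region of the Tal1, Lyl1 or Lmo2 window, placed by its width (x axis, bp, log scale) and summit fold (y axis, log scale) for H3K27ac (left) and H3K4me1 (right); grey cells show all regions of the list, darker where there are more. The Lmo2 points at 10.1 and 10.6 kb lie at the right edge of the H3K27ac cloud, and the Lyl1 point at 27.8 kb near the right edge of the H3K4me1 cloud.

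The Tal1 window held a short left group and a long right group of regions. Between them, from 114673319 to 114720537, lay 47.2 kb without H3K27ac, where 6 H3K4me1 regions lay wholly or in part. The inner 32.4 kb, from 114675133 to 114707563, carried neither mark. When H3K27ac regions up to 12.5 kb apart were joined into domains, the left group was the end of a domain of 42.0 kb that began at 114631297, outside the window, with 5.13 kb acetylated. The right group was a domain of 56.0 kb, from 114720538 to 114776545, with 13 H3K27ac regions and 17.3 kb acetylated. By acetylated length it was number 301 of 30221 domains and the left one number 2285. Joining over gaps of up to 5 kb gave 6 domains in the window, and the largest, from 114720538 to 114736358, was number 707 of 45758. With regions at a −log10 q of at least 5 the largest ended at 114769888 and was number 150 of 18750.

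The strongest H3K27ac region of the Tal1 window lay in the left group. It ran from 114658478 to 114660565, with 23.6-fold enrichment and 79 summit reads, and ranked 406th of all H3K27ac regions by fold. The other regions above 10-fold lay in the right group, 65.3 to 87.9 kb further along. They ran from 114728365 to 114732738 (17.1-fold, 57 reads), from 114724584 to 114726124 (15.1-fold, 50 reads) and from 114746416 to 114748714 (10.2-fold, 37 reads). The next was 9.46-fold, from 114760895 to 114762254, with 31 reads. The 17.1-fold region was the widest acetylated region of the window, at 4.37 kb, and the next was 2.30 kb wide.

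The 17.1-fold region filled a break in H3K4me1. The break ran from 114728974 to 114732839, was 3.87 kb long and was acetylated over 97.4% of its length. H3K4me1 regions of 6.95-fold and 7.16-fold adjoined it on the left and right. A second break 2.35 kb further on, from 114735191 to 114736803, was acetylated over 69.9%. The region inside it, from 114735231 to 114736358, was the one Tal1 H3K27ac region that met no H3K4me1 (6.03-fold, 25 reads, local background 1.39 times the genome-wide level). The remaining 8 of the 10 breaks of 1 to 5 kb in the window carried no H3K27ac, as did 74.5% of all such breaks.

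The H3K4me1 region of highest fold in the Tal1 window had no acetylation. It ran from 114795293 to 114797409 at 10.1-fold with 47 reads, and lay in the last 23.5 kb of the window, which held 5 H3K4me1 regions wholly or in part and no H3K27ac. Of all H3K4me1 regions of 10-fold or more, 92.3% met H3K27ac, and of the 4 in these windows 3 did. The second in fold, from 114742806 to 114749612, was 9.78-fold and the widest of the window at 6.81 kb. It contained the 10.2-fold H3K27ac region whole, and by summit reads it came first, with 50. The third, from 114774166 to 114777720, was 9.48-fold and was acetylated over 16.7% of its length, by a region of 4.14-fold. High H3K4me1 in this window therefore came with strong, weak or no detected H3K27ac, where an H3K27ac summit needed at least 8 reads to be called.

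**Figure D3:**
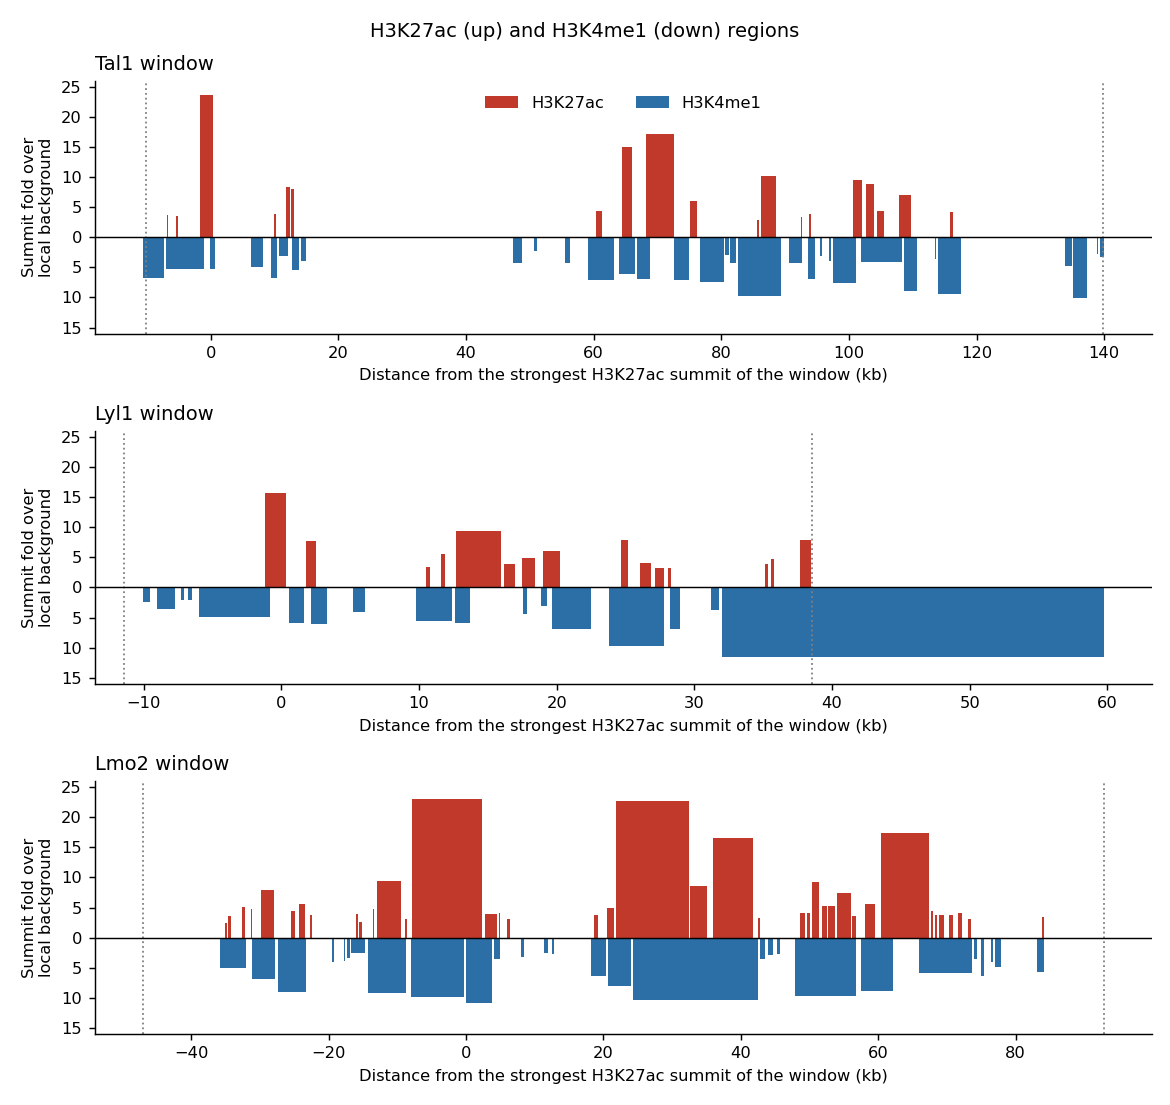
Bars show the regions of each window at their true position and width, as distance in kb from the strongest H3K27ac summit of that window (x axis), with their height as summit fold for H3K27ac (red, up) and H3K4me1 (blue, down). Dotted lines are the window ends; regions that do not touch the window are not drawn. The Tal1 regions fall into 2 groups around an unmarked stretch of 32.4 kb, and the Lmo2 window shows 4 wide acetylated blocks over broad H3K4me1.

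The Lyl1 window, the smallest, had 1 strong H3K27ac region and a run of moderate ones. The strong region ran from 87210250 to 87211768 at 15.7-fold with 52 reads. Its summit lay in a break of H3K4me1 of 1.39 kb, from 87210588 to 87211974, which was acetylated over 85.1%. H3K4me1 was present 1 kb to either side of that summit. That arrangement was found at 34.6% of all H3K27ac summits of 10-fold or more. Over summits of any fold it was found at 5.85%, near the 5 of 73 (6.85%) in these windows. The next H3K27ac regions in fold were at 9.46 (87224106 to 87227357, 31 reads), 7.98 (87236069 to 87236609, 26 reads), 7.83 (87249145 to 87249886, 26 reads) and 7.68 (87213226 to 87213927, 25 reads).

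The 9.46-fold region was the widest of the Lyl1 window for H3K27ac, at 3.25 kb, and reached into a second break of H3K4me1. That break ran from 87225144 to 87228998, 3.86 kb long, and was acetylated over 81.7%. The summit of the 9.46-fold region lay outside the break, inside an H3K4me1 region of 5.89-fold. The highest summit within the break was 3.91-fold, that of the only Lyl1 H3K27ac region with no H3K4me1, from 87227596 to 87228413 (14 reads). The 9.46-fold Lyl1 summit and the 17.1-fold Tal1 summit each lay near an edge of a break. The 9.46-fold summit lay 187 bp outside the Lyl1 break, and the 17.1-fold summit 55 bp inside the Tal1 break. The 3.91-fold summit lay 1151 bp from the nearest H3K4me1.

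The H3K4me1 region of highest fold that overlapped the Lyl1 window was also the widest, and its summit lay 5.85 kb beyond the window's end. It began at 87243456, ended at 87271225 and spanned 27.8 kb, the 7th widest of all 155027 H3K4me1 regions, with a summit of 11.6-fold (54 reads, 264th by fold). It met 17 H3K27ac regions, 3 of them inside the window, and was acetylated over 39.9% of its length with no H3K27ac summit above 8.57-fold. The next H3K4me1 regions in fold, both with their summits inside the window, were at 9.69 (87235240 to 87239235) and 6.96 (87231069 to 87233931). All 15 H3K27ac regions of the window fell into 1 domain of 113.7 kb that ended at 87323927. It held 44 H3K27ac regions and 28.9 kb acetylated, and was number 102 of 30221. The window held 15 of these regions and 12.5 kb of the acetylated length. Joining over gaps of up to 5 kb gave 3 domains, and the largest, from 87246561 to 87269922 and so mostly outside the window, was number 373 of 45758. With regions at a −log10 q of at least 5 there was 1 domain, number 115 of 18750. RefSeq places Nfix, a gene for a nuclear factor of the NFI family, after Lyl1, and which gene the part beyond the window belongs to was not determined.

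The Lmo2 window carried some of the widest acetylated regions found. Of all 93413 H3K27ac regions 9 were 10 kb or wider (0.00963%), and 2 of these lay here. They ran from 103768950 to 103779546 (10.6 kb, 22.8-fold, 76 reads, the 5th widest) and from 103739199 to 103749324 (10.1 kb, 23.0-fold, 77 reads, the 7th widest). Their summits lay 28.2 kb apart. The other regions above 10-fold were also wide, at 6.98 kb (103807540 to 103814519, 17.4-fold, 58 reads) and 5.94 kb (103782954 to 103788893, 16.5-fold, 55 reads). The fifth in fold was 9.46 (103734046 to 103737627, 3.58 kb, 31 reads).

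The other regions at Lmo2 were narrower. Of the 39 H3K27ac regions, 18 (46.2%) were under 500 bp, where 65.5% of all were, and 16 (41.0%) were below 4-fold, where 51.5% of all were. The 3 widest held 45.8% of the acetylated length. All 39 joined into 1 domain from 103711942 to 103831275, a span of 119.3 kb wholly inside the window. With 60.5 kb acetylated it was number 12 of 30221 domains. Joining over gaps of up to 5 kb split it into 5 domains, the largest of them number 92 of 45758. With regions at a −log10 q of at least 5 it formed 2 domains, the larger of them number 16 of 18750.

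H3K4me1 accompanied nearly all of the acetylation at Lmo2. Of the acetylated length in the window, 90.7% lay inside H3K4me1 regions, against 65.2% at Tal1, 53.8% at Lyl1 and 65.9% over all regions. The H3K4me1 regions of highest fold were at 10.95 (103747036 to 103750811), 10.3 (103771431 to 103789599) and 9.90 (103739067 to 103746805). The 10.3-fold region was the widest, at 18.2 kb, the 62nd widest of all, and was acetylated over 91.1% of its length. The 10.95-fold and 9.90-fold regions adjoined, and together they underlay the 23.0-fold H3K27ac region, which was covered over 97.7%. The other H3K27ac region above 10 kb was covered over 97.3%. Over all 200 H3K27ac regions of 5 kb or more the median cover was 91.8%. H3K4me1 regions of 10 kb or more numbered 2 of the 77, this one and the Lyl1 region of 27.8 kb, where 0.295% of all H3K4me1 regions were as wide.

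The wide region of 17.4-fold at Lmo2 was covered less. H3K4me1 lay over 46.5% of its length, and it spanned a break from 103809214 to 103812946. That break was 3.73 kb long and acetylated over its whole length, and the summit lay within it, 682 bp from the nearest H3K4me1. This break and the longer acetylated one at Tal1 were of similar length, 3.73 and 3.87 kb, with summits of 17.4-fold and 17.1-fold. The Lyl1 break of 3.86 kb, acetylated over 81.7%, held no summit above 3.91-fold. The shorter acetylated breaks held summits of 15.7-fold (1.39 kb, Lyl1) and 6.03-fold (1.61 kb, Tal1). Over all windows 5 of 22 breaks of 1 to 5 kb were acetylated over at least 50% of their length, 2 at Tal1, 2 at Lyl1 and 1 at Lmo2, where 10.2% of all 44084 such breaks were.

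Across the loci nearly every H3K27ac region met H3K4me1, by sharing at least 1 bp. The numbers were 18 of 19 at Tal1 (94.7%, interval 74.0 to 99.9%), 14 of 15 at Lyl1 (93.3%, 68.1 to 99.8%) and 37 of 39 at Lmo2 (94.9%, 82.7 to 99.4%), where 71.7% of all H3K27ac regions did. The intervals are exact 95% Clopper-Pearson intervals and cover counting error only, since neighbouring regions share sequence context and reads carry no molecular identifiers. Of H3K4me1 regions, 15 of 32 at Tal1 (46.9%, 29.1 to 65.3%), 10 of 17 at Lyl1 (58.8%, 32.9 to 81.6%) and 15 of 28 at Lmo2 (53.6%, 33.9 to 72.5%) met H3K27ac, where 33.6% of all did. The intervals of the 3 loci overlapped for both shares. H3K4me1 coverage of the Tal1, Lyl1 and Lmo2 windows was 6.22, 8.57 and 8.59 times that of the autosomes, and its part in these shares was not tested. The H3K27ac regions without H3K4me1 were the 6.03-fold and 3.91-fold regions named above and, at Lmo2, regions of 3.84-fold (103724416 to 103724605) and 3.13-fold (103753031 to 103753440), the last 3 named after their values were seen.

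Most strong acetylation summits of these loci lay inside H3K4me1. Of the 9 summits of 10-fold or more, 6 lay inside an H3K4me1 region (66.7%, interval 29.9 to 92.5%), where 25.6% of all 7255 such summits did. H3K4me1 flanked 1 of the 9 on both sides without covering it, where 34.6% of all did. By locus, the summits inside were 3 of 4 at Tal1, 0 of 1 at Lyl1 and 3 of 4 at Lmo2. Half-way widths differed between the sets compared, at 4374 bp (median) for the 9 and 1588 bp for the 7255. Among H3K27ac regions of 5 kb or more, 141 of 200 in the list (70.5%) had the summit inside. In these windows 3 of 4 did (75%), all at Lmo2. The part of width in the higher share of the 9 was not tested. With all 73 H3K27ac regions the share inside was 82.2% (60 regions, interval 71.5 to 90.2%), where 58.2% of all were, and it was 73.7% at Tal1, 80.0% at Lyl1 and 87.2% at Lmo2. The loci's shares had overlapping intervals, of 48.8 to 90.9%, 51.9 to 95.7% and 72.6 to 95.7% in that order. Those of Tal1 and Lyl1 included the 58.2% of the list.

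For some of these 9 the placement rested on short distances. The 23.0-fold Lmo2 summit lay 32 bp inside H3K4me1 and the 23.6-fold Tal1 summit 130 bp inside, each next to a break, whereas the 17.1-fold Tal1 summit lay 55 bp outside. The 15.1-fold and 10.2-fold Tal1 summits lay 1115 and 1491 bp from the nearest edge, and the 22.8-fold and 16.5-fold Lmo2 summits 3884 and 3710 bp. These 4 summits were the ones well within H3K4me1. The Lyl1 summit at 15.7-fold lay 540 bp outside.

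**Figure D4:**
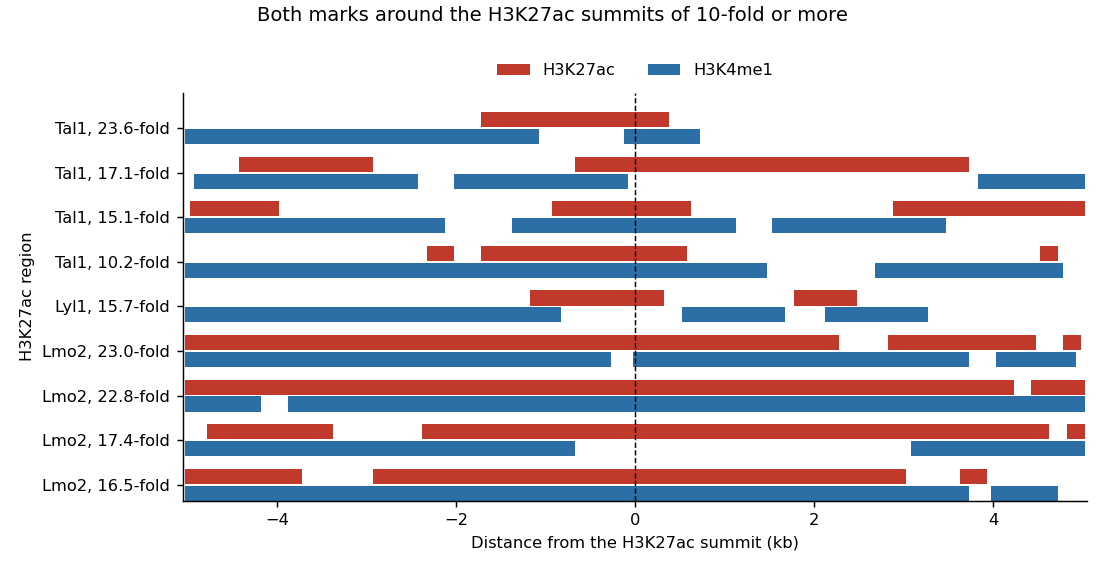
Each row is an H3K27ac region of 10-fold or more, named by its window and fold, with H3K27ac (red) and H3K4me1 (blue) regions drawn by distance in kb from its summit (x axis; dashed line at the summit). H3K4me1 runs past the summit in 6 of the 9 rows. The 17.1-fold Tal1, 15.7-fold Lyl1 and 17.4-fold Lmo2 summits lie in breaks of H3K4me1 filled wholly or mostly by H3K27ac. Shorter acetylated breaks lie next to the 23.6-fold Tal1 and 23.0-fold Lmo2 summits.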

How the data were processed

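Chromatin immunoprecipitation sequencing peak lists of 2 single libraries were used. The submitters' processing notes name Bowtie2 2.0.6, MACS2 2.0.10.20131216 and build mm9. Read filters, duplicate handling, caller options and control are not given in the sources used here. Fold as deposited is a ratio of summit pileup to local background. A −log10 p and a −log10 q of each summit were deposited by the authors, with a lowest −log10 q of 1.30 in H3K27ac and 1.31 in H3K4me1. The authors' score, which is −log10 q multiplied by 10 without decimals, was left aside.

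Summit reads were recovered from fold and −log10 p, taking fold as (reads + 1)/(background + 1) and p as a Poisson probability. Whole reads fitted all 93413 and all 155027 summits within 0.001. On simulated data made with the same formulas 100% were returned, which checks the arithmetic alone. Regions met if they shared at least 1 bp. Coordinates count from 1.

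The members, lists and rules were chosen with earlier results of these data known. In each window the 5 H3K27ac and 3 H3K4me1 regions of highest fold, the widest of each mark, and H3K27ac regions of 4-fold or more without H3K4me1 were named. Alternatives varied what counts as meeting, the q limit, how many H3K4me1 regions were kept and the joining of regions. The software was Python 3.11.15 with numpy 2.4.6, pandas 2.3.3 and scipy 1.17.1, and matplotlib 3.10.9 drew the figures.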

Additional observations from a re-analysis of the deposited data

How the results depend on the processing

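Of 69 alternative values, 41 stayed within the counting interval (shares) or within 1.5 times the count, and 28 did not. Values below are for Tal1, Lyl1 and Lmo2 in that order where 3 are given. The share of H3K27ac regions with H3K4me1 (94.7, 93.3 and 94.9%) was 100% at Tal1 and Lyl1 when a gap of up to 1 kb counted as meeting. At Lyl1 and Lmo2 it was 100% with q limits (−log10) of 5 or of 10, and with regions joined over 1 kb. It also fell in other settings, within its intervals. The lowest Tal1 value was 80.0%, under the limit of 10. With 50% of the shorter region required to be shared, it was 80.0% at Lyl1 and 87.2% at Lmo2, the lowest there. The share of H3K4me1 regions with H3K27ac at Lyl1 (58.8%) was 81.8% with equal numbers of regions in both lists and 85.7% with regions joined over 1 kb. H3K27ac regions (19, 15 and 39) numbered 12, 9 and 19 under the limit of 5, and 10, 6 and 9 under that of 10. After joining over 1 kb, Lyl1 had 6 and Lmo2 11. H3K4me1 regions (32, 17 and 28) numbered 19, 9 and 14 under the limit of 10, and 14, 7 and 9 when joined. Domains (2, 1 and 1) numbered 6, 3 and 5 when only gaps within 5 kb were joined, and Lmo2 had 2 under the q limit of 5. Stricter limits leave fewer regions by construction, and joining merges them; for the remaining changes the cause was not tested. The share of H3K27ac summits inside H3K4me1 stayed within its interval at each locus in all alternatives run. The Tal1 interval is wide, at 48.8 to 90.9%, and the Tal1 share fell from 73.7% to 58.3% (7 of 12) under the q limit of 5. Without a q limit 58.2% of all H3K27ac summits lay inside H3K4me1. Shares of the whole list under the alternative settings are not given here, so the 58.3% has no matched list value. No paired analysis was possible because a single library stands for each mark. Depth limits the absence of H3K27ac, since a summit under 8 reads was never called.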

Other observations

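Ordering the H3K4me1 regions by summit reads in place of fold changed the order in each window. The regions below were chosen after their values were seen. In the Tal1 window the 9.78-fold region, with 50 reads, came before the 10.1-fold region, which had 47. The region there from 114762050 to 114768458 had 44 reads, as many as the 9.48-fold region. Its enrichment was 4.15-fold, over a local background 2.62 times the genome-wide level. It was 6.41 kb wide and met 4 H3K27ac regions of up to 9.46-fold. In the Lyl1 window the region from 87231069 to 87233931 had 50 reads at 6.96-fold, with a local background 1.69 times the genome-wide level, and so came before the 9.69-fold region, which had 45 reads; the first 3 by reads there were the first 3 by fold. In the Lmo2 window the region from 103767734 to 103771145 came before the 9.90-fold region, which had 46 reads, with 47 reads at 8.11-fold and a local background 1.31 times the genome-wide level.

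An H3K27ac summit of 9.46-fold with 31 reads occurred in each of the 3 windows. Their local backgrounds were all 1.00 times the genome-wide level, where fold moves in steps of 1 read, so equal folds here mean equal read numbers. At the left end of the Lyl1 window 10.2 kb held no H3K27ac, and 5 H3K4me1 regions lay there wholly or in part. The 4 narrower ones were between 2.11-fold and 3.51-fold.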
